A study of Mus musculus with 144 samples.

Results

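Gene expression in the ageing spleen of CreER mice was described from 12 of the 144 libraries of the series: 6 spleens of 24-month-old animals against 6 of 6-month-old animals. Each age had 3 libraries of females and 3 of males, and both sexes were weighted equally across all genes. All 12 libraries carry the genotype label CreER, the control strain of a study of mice with a naked mole-rat hyaluronan synthase 2 transgene (nmrHAS2), whose 12 spleens are used below only for comparison. CreER is a fusion of Cre recombinase and an oestrogen receptor domain that is switched on by tamoxifen, so every old and every young animal here carries the recombinase. The promoter that drives it, the strain background and any tamoxifen treatment of these animals were not stated in the sources at hand. The study collected spleen with 5 other tissues to ask how nmrHAS2 mice and controls differ with age.

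The spleen filters blood and houses immune cells in 2 compartments. In the white pulp, naive T cells and follicular B cells recirculate through zones laid out by chemokines from reticular stroma, and marginal zone B cells and macrophages surround them. In the red pulp, macrophages clear old red cells and recycle their iron, and in mice red cells, granulocytes and platelets can also be formed there. With age the mouse spleen is known for fewer naive lymphocytes, for more activated and memory cells, and for looser boundaries between its zones.

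Total counts were 20.8 to 98.6 M per library (M, mega), with 59.5 to 98.6 M in females and 20.8 to 26.5 M in males. RNAs without a poly(A) tail took 5.44 to 6.54% of the counts in females and 0.000382 to 0.00421% in males, alike at both ages, so library kind and sex cannot be told apart. Markers of spleen were present in all 12 libraries: the red pulp macrophage factor Spic at 74.8 to 188 CPM and the spleen stroma factor Tlx1 at 5.13 to 14.9 CPM (counts scaled to a library total of 1 M). Old male libraries 1 and 3 looked alike: across 114 heavy chain variable segments their correlation was 0.992, against a median of 0.733 over all 66 pairs, and across 100 kappa segments it was 0.994. Across T cell receptor alpha and beta segments, with 780 and 800 counts, they were not among the 3 closest pairs. Those 3 were pairs of young libraries at 0.874 to 0.935. The counts of old males 1 and 3 were not identical (chi-square per gene 19.7). Young female nmrHAS2 1 and 2 looked alike too, as the closest pair of all spleen libraries across heavy chain and across kappa segments. Chi-square per gene was 32.2 for them and 55.9 for the next same-group pair, young female CreER 1 and 3. This value grows with depth where libraries differ by more than counting error, so it cannot rank female against male pairs. Among same-age pairs of CreER males, which are of like depth, old males 1 and 3 had the lowest value. The labels name no animals, so it cannot be told whether old males 1 and 3 come from 1 animal, in which case the old males would be 2 animals and not 3. Both libraries were kept, and values with the pair as 1 library stand beside many of the results they change. On the TMM scale used below, the transgene transcript, which CreER animals should lack, lay at 0.0939 to 0.635 CPM in 11 libraries. It was at 2.01 CPM in old female library 2. Without the libraries whose transgene level goes against their label, 1352 genes were higher and 1585 lower with age.

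With age, 1347 of 20851 genes tested were higher (6.46%) and 1503 were lower (7.21%) at an adjusted p under 0.05 in edgeR. The median log2 change of the called genes was 0.98 in size for the higher and 0.68 for the lower ones, and 660 and 444 of them changed at least 2-fold. Over all genes tested the median log2 change was -0.03. Both sexes moved the same way for 1319 of the higher and 1486 of the lower genes. Genes were called on the mean change of both sexes, which favours such agreement, and its share over all genes tested was not counted. With the look-alike pair as 1 library, 870 of 21701 genes were higher (4.01%) and 784 were lower (3.61%), which kept 842 and 774 of the calls above. A log2 change below is 24 against 6 months on the fitted scale ± its standard error. Levels of a gene are CPM scaled by TMM over n = 6 libraries per age. Summed levels of a list, and pancreatic markers set against 1 CPM, use the library total without TMM. Adjusted p comes from edgeR unless said otherwise. The gene lists were chosen with earlier results of these data known, so their shares of called members are descriptive and not a test. Some genes belong to more than 1 list. In whole tissue, fewer cells of a type and less RNA per cell cannot be told apart.

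**Figure D1:**
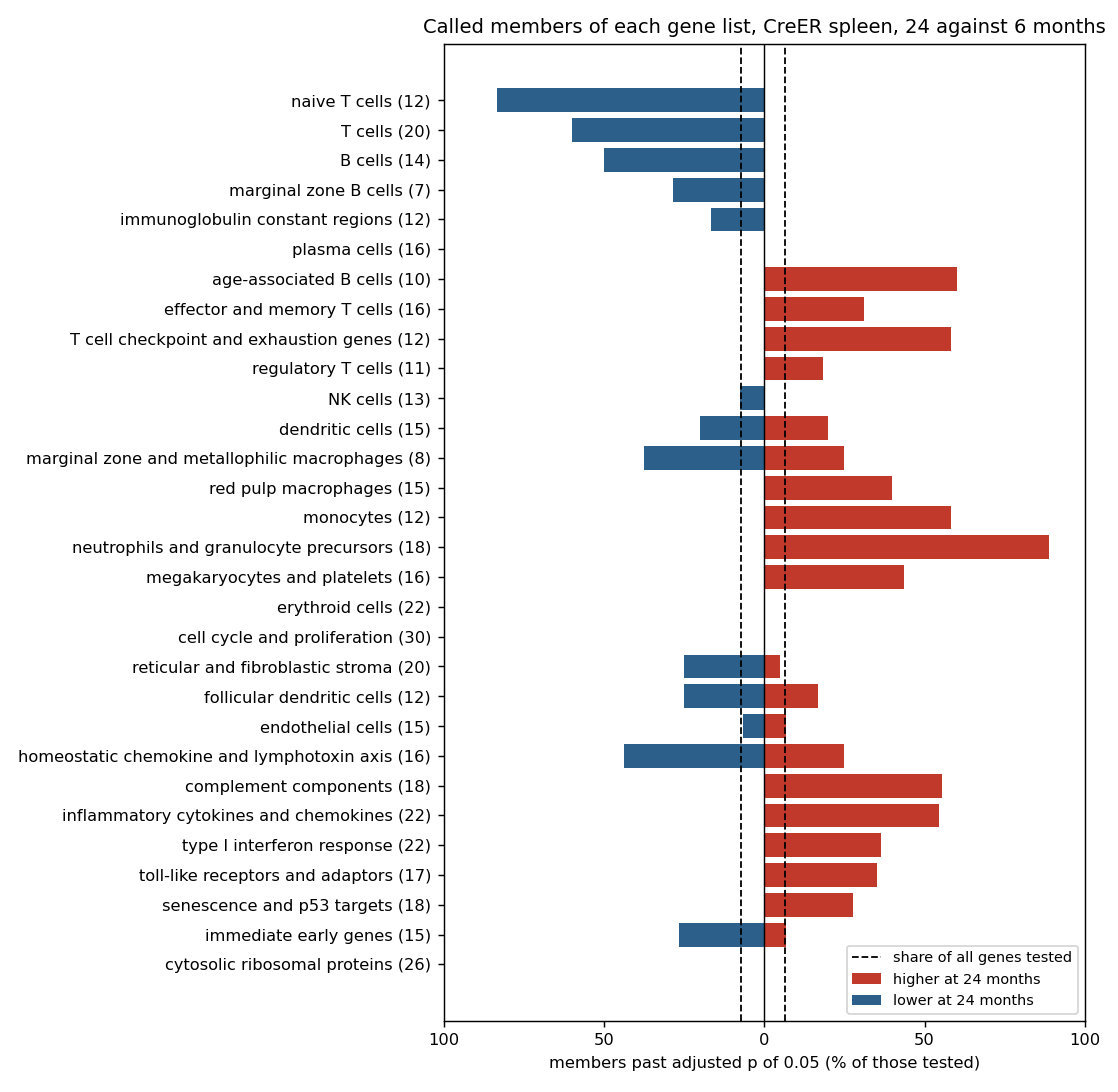
Share of the tested members of 30 gene lists that were called at 24 against 6 months in CreER spleen, in percent, with the number tested in brackets (red to the right, higher; blue to the left, lower; dashed lines, the share of all genes tested, 6.46% and 7.21%). Neutrophil genes reach furthest to the right with 16 of 18, and naive T cell genes furthest to the left with 10 of 12. The lists were chosen with earlier results of these data known.

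Genes of naive T cells were lower in old spleens: 10 of 12 members of that list fell, none rose, and the list's median log2 change was -1.44, against -0.03 over all genes. The count was 10 with the look-alike pair as 1 library and also without each of the 12 libraries in turn. Lef1, a transcription factor of naive T cells, had 10.2, 27.9 and 44.8 CPM as lowest, median and highest level in young spleens and 2.96, 3.23 and 5.78 CPM in old ones. The ages did not overlap, and Lef1 fell by 2.84 on the log2 scale (± 0.31, adjusted p 4.21e-05). Of all genes tested 1.52% lay lower in every old than in every young library, and 1.61% lay higher in every old one. Satb1, a chromatin organiser of T cell development, had 60.5, 67.2 and 88.8 CPM in young and 6.7, 19 and 29.1 CPM in old spleens. All old libraries again lay below all young ones, and the change was -2.17 ± 0.25 (adjusted p 7.24e-05). Dapl1, a marker of naive T cells, ranged from 2.47 to 20.4 CPM in young spleens and from 0 to 1.13 CPM in old ones, where a count of 0 allows up to 0.144 CPM (3 counts of the library). Its change of -4.55 ± 0.61 (adjusted p 0.000208) was the largest fall among the named genes. Ccr7, the receptor that guides naive T cells into the T zone, fell from a median of 69.9 to 21.8 CPM (-1.64 ± 0.22, adjusted p 0.000215) with no overlap between the ages. S1pr1, the receptor by which lymphocytes leave lymphoid organs, fell from a median of 180 to 70.8 CPM without overlap (-1.23 ± 0.27, adjusted p 0.00533).

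Other called members of the naive list, named here after their values were seen, included Tcf7 (-1.92), Nsg2 (-1.97), Klf2 (-1.06) and Igfbp4 (-0.79). Tcf7 is a partner of Lef1, and Klf2 keeps T cells quiescent. Il7r, the interleukin-7 receptor, had a change of -0.55 ± 0.34 (adjusted p 0.305) and Actn1 of -0.09, and neither was called. Of the genes shared by T cells at large 12 of 20 fell and none rose, with a median of -0.77, and 4 of 20 fell with the look-alike pair as 1 library. Without old female 3, old male 1, old male 3 or young female 2 the count was 5. Cd8b1, a chain of the CD8 coreceptor, had 20.6 to 76.4 CPM in young and 5.66 to 27.2 CPM in old spleens, with an overlap in females. It fell by 1.26 on the log2 scale (± 0.27, adjusted p 0.0048), as did its partner Cd8a by 1.01 (± 0.25, adjusted p 0.0107). The T cell receptor constant gene Trbc2 fell by 0.99 (± 0.23). The CD4 coreceptor gene Cd4 was at 0.31 ± 0.22 (adjusted p 0.381) and Cd3e at -0.61, and neither was called.

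**Figure D2:**
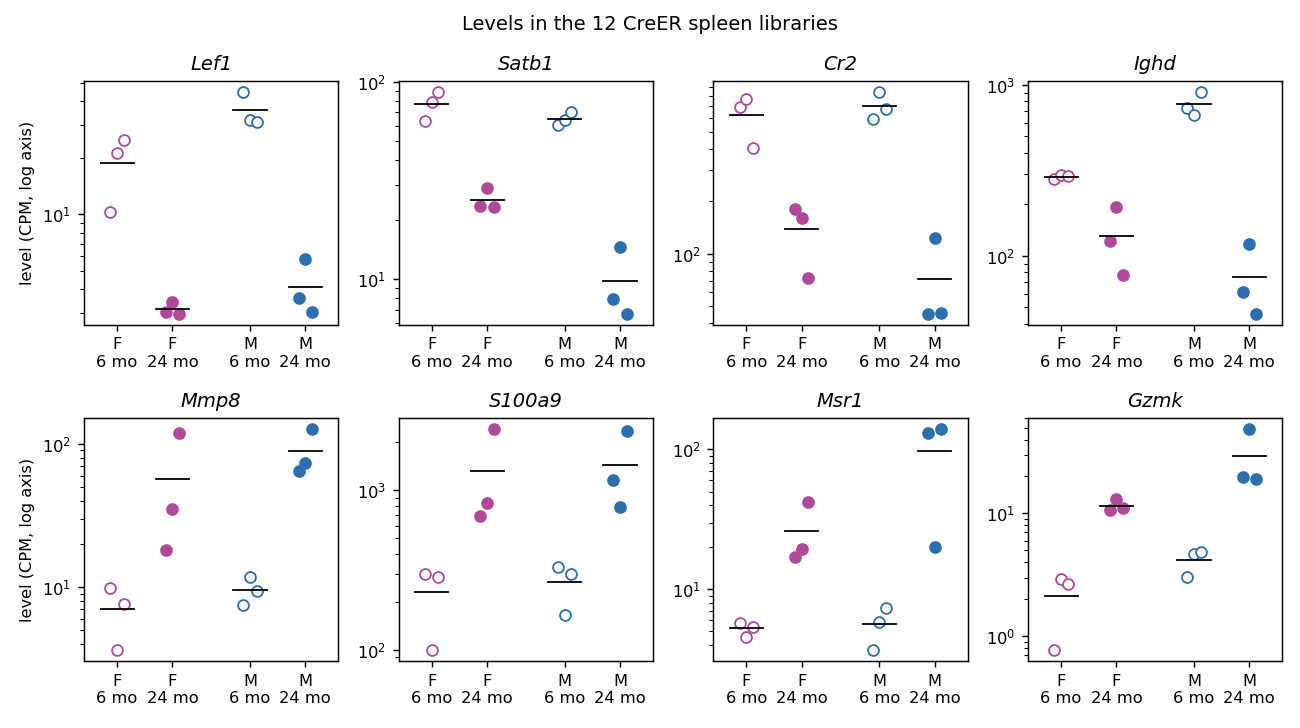
Levels of 8 genes in each of the 12 CreER spleen libraries (CPM, log axis), by sex and age (open circles, 6 months; filled circles, 24 months; F, female; M, male; bars, mean of 3 libraries). Lef1, Satb1, Cr2 and Ighd lie lower in every old than in every young library, and Mmp8, S100a9, Msr1 and Gzmk lie higher.

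Among B cell genes 7 of 14 fell and none rose (median -0.78), and 3 fell with the look-alike pair as 1 library. With 1 library left out the count was 3 (old female 3, old male 3, young male 2 or young male 3) to 8, and 4 without old female 1, old male 1 or any of the 3 young females. All 14 fitted changes were below 0. The largest belonged to Cr2, complement receptor 2 (CD21), which marginal zone and follicular B cells and follicular dendritic cells carry. It had 402, 683 and 841 CPM as lowest, median and highest level at 6 months and 45.4, 98.1 and 180 CPM at 24 months, with no overlap (-2.73 ± 0.38, adjusted p 0.000268). Fcer2a, the low-affinity IgE receptor CD23 of follicular B cells, had 65.1, 113 and 173 CPM in young and 4.89, 13.2 and 67 CPM in old spleens. Its ages were apart within each sex, and its change was -2.41 ± 0.56 (adjusted p 0.00817). Foxp1, a transcription factor of B and T cells that is no list member, fell from a median of 149 to 64.4 CPM (-1.16 ± 0.20, adjusted p 0.00134). Cd37, a tetraspanin of mature B cells, fell by 0.79 (± 0.20, adjusted p 0.0133). Ebf1, a factor of B cell identity, was called at -1.09 ± 0.32 but in 6 of 12 fits with 1 library left out, losing its call without old female 3, old males 1 or 3, young female 3 or young males 2 or 3, and with the look-alike pair as 1 library (adjusted p 0.0916). Ms4a1 (CD20, -0.43) was not called.

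Of 7 genes listed for marginal zone B cells, Cr2 and Dtx1 fell. Dtx1, a regulator of Notch signalling, had 63.9 to 91 CPM in young and 18.9 to 67 CPM in old spleens (-1.18 ± 0.30, adjusted p 0.0146; 0.0512 with the look-alike pair as 1 library). Cd1d1 (-0.50) and S1pr3 (-0.26) of the same list were not called, nor was Fcrl5 (0.66).

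The immunoglobulin constant genes did not move as a block. Ighd, the IgD heavy chain that naive B cells display beside IgM, had 279, 484 and 905 CPM in young and 45.8, 97.4 and 194 CPM in old spleens. The ages did not overlap, and Ighd fell by 2.25 on the log2 scale (± 0.29, adjusted p 0.000148). Ighm, the IgM heavy chain, had 6708 to 17440 CPM in young and 11400 to 31750 CPM in old spleens, with a change of 0.55 ± 0.31 (adjusted p 0.26). Igha, the IgA heavy chain, was called at -1.70 ± 0.50 (adjusted p 0.0292), with -3.10 in males and -0.31 in females. That call was lost in 7 of 12 fits with 1 library left out and with the look-alike pair as 1 library (adjusted p 0.0933). The 7 were those without old females 2 or 3, old males 1 or 3, young females 1 or 3 or young male 1. The 9 other constant genes tested beside Ighm were not called, among them Igkc (0.41 ± 0.27) and Ighg2b (1.42 ± 0.68). Summed over the constant genes, old females (35560 to 52150 CPM) lay above young females (15850 to 24000 CPM), while males overlapped at 23210 to 39540 CPM when old and 25850 to 51820 CPM when young. Reads can be shared between the near-identical Ighg and Iglc genes, so their split is uncertain. Of 16 plasma cell genes 0 were called by edgeR or DESeq2 and 4 had an unadjusted p under 0.05 (1 higher, 3 lower), with medians of 0.63 in females and -0.53 in males.

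Of 16 effector and memory T cell genes 5 rose and none fell (median 0.34), also 5 with the look-alike pair as 1 library. Gzmk, a granzyme of memory CD8 T cells, had 0.765, 2.96 and 4.84 CPM as lowest, median and highest level in young spleens and 10.8, 16.1 and 49 CPM in old ones. All old libraries lay above all young ones (2.63 ± 0.42, adjusted p 0.000674). Gzmb, the granzyme of acute killing, rose by 1.62 (± 0.36, adjusted p 0.00583) and overlapped between the ages in females. The chemokines Ccl3 and Ccl4, which activated T cells, NK cells and macrophages secrete, rose by 1.65 (± 0.25) and 1.72 (± 0.27), and Ccl5 by 0.94. Ifng, the interferon-gamma gene, was at 0.51 and Gzma at -0.60, and neither was called.

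Of 12 T cell checkpoint and exhaustion genes 7 rose and none fell, also with the look-alike pair as 1 library. With 1 library left out 2 rose (without old female 3, young female 1, young male 1 or young male 3) or 4 (without old male 2, young females 2 or 3 or young male 2), and at most 7. Havcr2, the checkpoint receptor TIM-3, had 20 to 29.8 CPM in young and 32.2 to 48.2 CPM in old spleens (0.60 ± 0.15, adjusted p 0.0122). Entpd1, the ectonucleotidase CD39, rose by 0.79 (± 0.17, adjusted p 0.00476). Pdcd1, the PD-1 gene, was called at 1.20 ± 0.35, but old male 2 held the highest level at 58.7 CPM and without it the change was 0.54 and not called. The call of Pdcd1 was also lost without old female 3, young females 1 or 3 or young males 1 or 3. Ctla4, an inhibitory receptor of activated and regulatory T cells, was called at 1.12 ± 0.32 and lost its call in 5 of 12 such fits, those without old female 3, old male 2, young female 1 or young males 1 or 3. Il10, the anti-inflammatory cytokine interleukin-10, had 0.603, 1.17 and 3.04 CPM in young and 5.43, 7.76 and 11.6 CPM in old spleens. The ages did not overlap (2.4 ± 0.42, adjusted p 0.00141). Of 11 regulatory T cell genes 2 rose and none fell, and without old male 2 there was 1 that rose and 2 that fell. Foxp3, the factor that defines regulatory T cells, was at 0.13 and not called. Of 10 follicular helper T cell genes 1 rose and 1 fell, none fell with the look-alike pair as 1 library, and none rose and 3 fell without old male 2.

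Of 10 genes listed for age-associated B cells, a memory-like subset that accumulates in old mice, 6 rose and none fell (median 0.87). The count that rose was 6 with the look-alike pair as 1 library and without each library in turn, and without old female 2 there was 1 that fell. Zbtb32, a repressor induced in activated B cells, had 3.44, 5.5 and 8.87 CPM in young and 5.69, 12.5 and 85 CPM in old spleens (2.05 ± 0.42, adjusted p 0.00387). Cd80, a costimulatory ligand, rose by 1.12 (± 0.21, adjusted p 0.00209). Itgax and Itgam, the integrins CD11c and CD11b that the subset carries, rose by 1.07 (± 0.22) and 1.86 (± 0.29), but dendritic cells and other myeloid cells carry them too. The other called members were Zeb2 (0.45) and Fcer1g (1.18), and which cells account for the rises of this list was not tested. Tbx21, the T-bet gene that defines the subset, was at -0.24, Cxcr3 at -0.52 (adjusted p 0.0921) and Fcrl5 at 0.66, and none of these was called. Of 11 germinal centre genes Basp1 (1.24 ± 0.24) and Plxnb2 (0.57 ± 0.14) rose and none fell. Without old male 2 these 2 rose and 5 fell: Bcl6, the factor that directs the germinal centre programme (-0.21 with and -1.07 without that library), Mybl1 (0.28 and -1.17), Rgs13, a regulator of G protein signals (0.78 and -2.98), Neil1, a DNA glycosylase (0.19 and -0.81), and Mef2b (0.86 and -1.03). Rgs13 had 4.57 to 13.9 CPM in young spleens, 0.363 to 3.49 CPM in 5 of the old ones and 252 CPM in old male 2. These 5 were named after their values were seen, and old male 2 held the highest level of the 12 libraries for each.

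Neutrophil and granulocyte precursor genes made up the list with the largest share of called members: 16 of 18 rose and none fell, with a median log2 change of 2.48. With the look-alike pair as 1 library 7 of 18 rose, and all 18 had an unadjusted p under 0.05 there. The count fell to 5 without old female 3, to 7 without old male 3, young female 2 or young male 2, and to 9 without young male 3. The summed level of the list was 300, 842 and 1018 CPM as lowest, median and highest in young spleens and 1536, 3454 and 6667 CPM in old ones, without overlap in either sex. Old female 3 and old male 3 held the highest sums. Mmp8, neutrophil collagenase, had 3.63, 8.57 and 11.8 CPM in young and 18.3, 69.1 and 128 CPM in old spleens (3.11 ± 0.66, adjusted p 0.00451). Lcn2, the iron-binding protein lipocalin-2 of neutrophil granules, went from 8.13, 33.3 and 48.4 CPM to 64.3, 192 and 390 CPM (2.74 ± 0.70, adjusted p 0.0136). S100a8 and S100a9, which form calprotectin, rose by 2.49 (± 0.65, adjusted p 0.0154) and 2.47 (± 0.64, adjusted p 0.0153). None of these 4 genes overlapped between the ages.

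The called members spanned the maturation of the lineage. The primary granule genes of promyelocytes, Mpo (2.37), Elane (2.34), Prtn3 (2.5) and Ctsg (2.56), were each called, with adjusted p between 0.0216 and 0.0281 (0.0537 to 0.0659 with the look-alike pair as 1 library). The later granule genes Ltf (2.5), Camp (2.47) and Ngp (2.51) were called as well, and not with the look-alike pair as 1 library (adjusted p 0.0595, 0.0607 and 0.0563). Csf3r, the receptor of granulocyte colony-stimulating factor, rose by 0.70 (± 0.19). Cxcr2, a chemokine receptor of mature neutrophils, was at 0.56 ± 0.24 (adjusted p 0.124), and Cebpe, a factor of late granulocyte maturation, was at 1.86 ± 0.64 (adjusted p 0.0568).

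Promoters of 3 of these genes are printed because their list rose together and their windows hold letters of factors that granulocyte genes are known for. The windows are bases 200 to 71 before the RefSeq start in the RefSeq table (GRCm38.p6), 5′ to 3′ on the gene's strand: Ngp at chr9:110419608-110419737 (+), Prtn3 at chr10:79879467-79879596 (+) and Elane at chr10:79886112-79886241 (+). Capitals mark the C/EBP letters TTGCNNAA in Ngp and the PU.1 letters GAGGAAGT in Prtn3 and Elane.
Ngp: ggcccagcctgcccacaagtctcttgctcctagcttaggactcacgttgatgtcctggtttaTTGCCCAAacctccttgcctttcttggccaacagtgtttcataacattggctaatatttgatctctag
Prtn3: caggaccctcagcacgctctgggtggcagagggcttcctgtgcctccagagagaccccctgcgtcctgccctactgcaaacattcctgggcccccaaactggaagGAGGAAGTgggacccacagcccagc
Elane: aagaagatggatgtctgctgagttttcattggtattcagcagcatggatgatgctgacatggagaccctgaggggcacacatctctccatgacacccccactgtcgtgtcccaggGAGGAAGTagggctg
Over the 250 bases before the start and on both strands, the C/EBP letters lay in 7 of 16 windows of the list (43.8%) and in 9.56% of all 32851 windows. They also lay in 3 of 9 windows of the naive T cell list (33.3%), whose genes fell. In the interferon, cytokine and megakaryocyte lists they lay in 0 of 14, 1 of 16 and 2 of 13 windows. The PU.1 letters lay in 6 of 16 (37.5%) and in 2.44% of all. These genes were picked for print after their values were seen, 8 motifs were searched in 5 lists, and a match describes letters only.

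Monocyte genes were higher as well: 7 of 12 rose, none fell, and the count was 7 with the look-alike pair as 1 library. Ms4a6c, a membrane protein of monocytes, had 49 to 75.2 CPM in young and 79.8 to 267 CPM in old spleens (1.43 ± 0.20, adjusted p 0.000268). F13a1, coagulation factor XIII of monocytes and platelets, had 11.6 to 22.2 CPM in young and 45.3 to 93.1 CPM in old spleens (1.93 ± 0.36, adjusted p 0.0021). Ccr2, the receptor by which monocytes enter tissue, rose by 0.68 (± 0.15, adjusted p 0.0068). None of these 3 overlapped between the ages. The gene with the smallest p was Il1rn, the interleukin-1 receptor antagonist, at 3.76, 5.39 and 9.25 CPM in young and 7.3, 22.5 and 73.8 CPM in old spleens. Its ages were apart within each sex (1.99 ± 0.19, adjusted p 9.53e-06). Ms4a6d (2.46 ± 0.29), Clec7a, the fungal glucan receptor dectin-1 (1.36 ± 0.16), and Litaf (0.86 ± 0.10) followed, each without overlap and with adjusted p between 7.6e-05 and 8.31e-05.

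Macrophage genes moved in both directions. Of 15 red pulp macrophage genes 6 rose and none fell, while 4 rose with the look-alike pair as 1 library and 10 without old male 2. C1qa, C1qb and C1qc, the chains of the first complement component, rose by 1.27 (± 0.24), 1.33 (± 0.25) and 1.20 (± 0.23). C1qa had 214 to 339 CPM in young and 347 to 1169 CPM in old spleens, without overlap. Cd68, a lysosomal protein of macrophages, rose by 0.87 (± 0.17, adjusted p 0.00278). Spic, the factor that defines red pulp macrophages, was at 0.31 ± 0.21, and Slc40a1, the iron exporter ferroportin, at -0.15. Neither was called.

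Of 8 genes for macrophages of the marginal zone 3 fell and 2 rose, and 2 fell with the look-alike pair as 1 library. Marco, the scavenger receptor of marginal zone macrophages, had 102, 132 and 181 CPM in young and 12.3, 55 and 146 CPM in old spleens. The ages were apart within each sex (-1.52 ± 0.28, adjusted p 0.00172). Cd209b, the lectin SIGN-R1 of the same cells, fell by 1.76 (± 0.40, adjusted p 0.00712), from a median of 37.9 to 9.08 CPM. Cd209a, a dendritic cell lectin, fell by 1.85 (± 0.48, adjusted p 0.0151; 0.0562 with the look-alike pair as 1 library). Msr1, scavenger receptor A, went the other way, from 3.67, 5.59 and 7.37 CPM to 17, 31.2 and 140 CPM (3.22 ± 0.48, adjusted p 0.000438). Every old library lay above every young one, and old males 1 and 3 held the highest levels. Nr1h3, the oxysterol receptor needed for marginal zone macrophages, rose by 0.61 (± 0.14, adjusted p 0.00918), and Siglec1, the metallophilic macrophage lectin, was at 0.90 ± 0.33 (adjusted p 0.0736).

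Among 15 dendritic cell genes 3 rose and 3 fell, with 2 in each direction with the look-alike pair as 1 library, and 5 fell without old male 2. Clec10a, a lectin of type 2 dendritic cells and macrophages, had 2.88 to 4.6 CPM in young and 5.88 to 36.7 CPM in old spleens (1.98 ± 0.33, adjusted p 0.000906), and Itgax rose as given above. Ccr9, a chemokine receptor of plasmacytoid dendritic cells, fell by 1.06 (± 0.25, adjusted p 0.0086), with Cd209a and Clec9a (-0.47). Of 11 class II presentation genes Ctss, a lysosomal protease that trims the invariant chain, rose by 1.07 (± 0.22) and H2-Ob was called at -0.94 ± 0.28. The H2-Ob call was kept in 5 of 12 fits with 1 library left out and lost without old females 1 or 3, old males 1 or 3, young females 1 or 2 or young male 3, and with the look-alike pair as 1 library 1 gene of the list rose and none fell (adjusted p 0.101 for H2-Ob). Without old male 2, 3 of the list fell. H2-Aa (0.08) and Cd74 (-0.51) were not called. Of 13 NK cell genes 1 was called, Klrd1 at -0.76 ± 0.22, and its call was lost with the look-alike pair as 1 library (adjusted p 0.0736) and without old female 3, old males 1 or 3, young female 2 or young male 3.

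Inflammatory genes followed the myeloid ones: 12 of 22 cytokine and chemokine genes rose and none fell (median 0.78), and 8 rose with the look-alike pair as 1 library. The monocyte-attracting chemokines Ccl2 (1.97 ± 0.52), Ccl7 (2.04 ± 0.60) and Ccl8 (2.13 ± 0.56) had the largest fitted changes after Il10. For Ccl2 the log2 change was 3.66 in males and 0.27 in females, and with the look-alike pair as 1 library neither Ccl2 nor Ccl7 was called (adjusted p 0.0564 and 0.0773). Nlrp3, the sensor of an inflammasome, rose by 0.51 (± 0.11, adjusted p 0.00641). The classical cytokines Il1b (0.66 ± 0.22, adjusted p 0.0522), Il6 (0.77 ± 0.35, adjusted p 0.153) and Tnf (0.34 ± 0.21, adjusted p 0.3) were not called.

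Of 18 complement genes 10 rose and none fell, again 10 with the look-alike pair as 1 library. C5ar1, the receptor of the anaphylatoxin C5a, had 2.31 to 3.19 CPM in young and 4.54 to 21.6 CPM in old spleens (2.06 ± 0.35, adjusted p 0.000946) without overlap. Cfp, properdin, the stabiliser of the alternative pathway, rose by 1.61 (± 0.30, adjusted p 0.00208). The anaphylatoxin receptor C3ar1 rose by 2.63 (± 0.53, adjusted p 0.00334), with 4.08 in males and 1.18 in females. Of 17 Toll-like receptor genes and adaptors 6 rose and none fell, 4 rose with the look-alike pair as 1 library, and 3 rose without old female 3, young female 3 or young male 1. These were the nucleic acid sensors Tlr7 (1.05 ± 0.20), Tlr8 (2.16 ± 0.35) and Tlr13 (1.41 ± 0.20), and the surface receptors Tlr2, Tlr4 and Tlr6 (0.49 to 0.67). With the look-alike pair as 1 library Tlr2 and Tlr4 lost their calls (adjusted p 0.0814 and 0.0829), and Tlr2 also without old female 3, old males 1 or 3, young female 3 or young males 1 or 2. Tlr13, a sensor of bacterial ribosomal RNA, had 36.5 to 41.5 CPM in young and 54.2 to 186 CPM in old spleens, while Tlr9, the DNA sensor, was at -0.15 and not called.

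Of 22 genes of the type I interferon response 8 rose and none fell, with a median of 0.65, and 6 rose with the look-alike pair as 1 library. The list's median was 1.09 in males and 0.29 in females. Irf7, the factor that amplifies interferon production, had 32.4, 40 and 45.3 CPM in young and 36, 85.5 and 234 CPM in old spleens. The ages were apart in males and overlapped in females (1.36 ± 0.26, adjusted p 0.00253). Oasl2 (1.52 ± 0.28) and Oas1a (1.12 ± 0.23), of the family that senses double-stranded RNA, and Ifi44 (1.34 ± 0.27) rose as well and showed the same split of apart in males and overlapping in females. Reads of Oas1a can be shared with its near-identical neighbours. Isg15 (0.99) was not called. Promoters of 2 called members are printed to show the letters that interferon-induced genes share: Bst2, which encodes the virus tether tetherin (0.45 ± 0.14; adjusted p 0.0365, and 0.0849 with the look-alike pair as 1 library), at chr8:71537543-71537672 (-), and Ifit1, which binds foreign RNA (1.16 ± 0.30), at chr19:34640689-34640818 (+). The windows are again bases 200 to 71 before the start in the RefSeq table, and capitals mark the interferon-stimulated response element letters GAAANNGAA on either strand, some of which overlap.
Bst2: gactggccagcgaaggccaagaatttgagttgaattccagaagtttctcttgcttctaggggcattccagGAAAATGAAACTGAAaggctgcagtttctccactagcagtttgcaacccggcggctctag
Ifit1: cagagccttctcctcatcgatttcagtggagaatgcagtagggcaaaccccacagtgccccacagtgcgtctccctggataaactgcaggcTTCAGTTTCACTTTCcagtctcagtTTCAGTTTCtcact
Of the 14 members with a window 9 held these letters (64.3%), against 7.13% of all windows and 1 of 16 of the neutrophil list.

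Homeostatic chemokines and lymphotoxin signals, which lay out the white pulp, moved in both directions: 7 of 16 fell and 4 rose, and with the look-alike pair as 1 library 2 fell and 2 rose. With 1 library left out 2 (without old male 3) to 8 fell and 1 (without old female 3 or old male 1) to 4 rose. On the lower side were the T zone chemokines Ccl19 (-0.65 ± 0.19) and Ccl21a (-0.99 ± 0.32), the lymphotoxin gene Ltb (-0.88 ± 0.27) and the receptors Ccr7, S1pr1 and Cxcr5. With the look-alike pair as 1 library Ccl19, Ccl21a and Ltb were not called (adjusted p 0.0978, 0.126 and 0.0788). The follicle-homing receptor Cxcr5 lost its call with the look-alike pair as 1 library (adjusted p 0.0876) and without old female 3, old males 1 or 3, young female 2 or young males 2 or 3. Ccl21a was at -1.96 in males and -0.01 in females, and its reads can be shared with near-identical copies. Cxcl12, a stromal chemokine that retains plasma and progenitor cells, had 182 to 270 CPM in young and 64.7 to 240 CPM in old spleens (-0.77 ± 0.21, adjusted p 0.0195), with 0.0366 in females. Cxcl12 was not called without old male 1 or old male 3, or with the pair as 1 library (adjusted p 0.0718). Cxcl13, the chemokine of B cell follicles, was at -0.28 and not called. On the higher side Tnfsf13, the B cell survival factor APRIL, rose by 0.98 (± 0.16, adjusted p 0.000898), from 6.67 to 13.6 CPM in young to 14.1 to 29.5 CPM in old spleens, without overlap.

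Genes listed for reticular and fibroblastic stroma were called on the lower side in 5 of 20 (1 with the look-alike pair as 1 library and 0 to 5 with 1 library left out, 0 without old male 3), and 1 was called on the higher side (0 with that pair as 1 library). This list shares Ccl19, Ccl21a and Cxcl12 with the chemokines above, so the 2 counts of falls overlap. Nkx2-5, a factor of spleen mesenchyme, had 1.73 to 2.5 CPM in young and 0.679 to 1.61 CPM in old spleens (-0.62 ± 0.18, adjusted p 0.0287), and Tlx1, needed for the spleen to form, changed by -0.54 ± 0.15. Both calls depended on the libraries used: Nkx2-5 was called in 8 of 12 fits with 1 library left out (lost without old female 3, old male 3, young female 1 or young male 1) and Tlx1 in 7 (lost without these or young male 3). With the look-alike pair as 1 library Nkx2-5 was not called (adjusted p 0.0648). Of the follicular dendritic cell genes, Coch, an extracellular matrix protein, fell by 0.81 (± 0.17, adjusted p 0.0048), from a median of 886 to 479 CPM. Fcgr2b, the inhibitory Fc receptor, rose by 1.0 (± 0.23, adjusted p 0.00843). None of the collagens listed was called, with Col1a1 at 0.12 and Col3a1 at -0.10. The matrix proteases Mmp2 (0.72 ± 0.18) and Mmp14 (0.54 ± 0.11) and the inhibitor Timp1 (0.86 ± 0.19) rose, the 3 called of 26 matrix genes. Of 16 hyaluronan genes, Vcan, the hyaluronan-binding proteoglycan versican, rose from 1.55 to 4.5 CPM to 8.8 to 26.4 CPM (2.20 ± 0.37, adjusted p 0.000935) without overlap. The synthase gene Has2 of the mouse was at 0.47 ± 0.24 (adjusted p 0.2).

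Of 18 senescence genes and p53 targets 5 rose and none fell, also 5 with the look-alike pair as 1 library. Cdkn1a, which encodes the cell cycle inhibitor p21, had 4.13, 6.04 and 6.77 CPM in young and 5.23, 13.7 and 34.6 CPM in old spleens. The ages were apart in males and overlapped in females (1.28 ± 0.23, adjusted p 0.00175). Cdkn2a, the locus of p16 and p19, was called at 1.23 ± 0.37 (adjusted p 0.0303). The p53 targets Eda2r (1.08 ± 0.23) and Ccng1 (0.70 ± 0.13) rose, while Mdm2 (0.07), Trp53inp1 (0.22) and Cdkn2b (0.13) were not called.

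Of 20 genes of iron and haem handling 5 rose (3 with the look-alike pair as 1 library or without old female 3, old male 1 or old male 3), among them Hp, the haemoglobin-binding haptoglobin, from 10.5 to 18.8 CPM in young to 36.5 to 117 CPM in old spleens (2.14 ± 0.45, adjusted p 0.00438). Cp, the ferroxidase ceruloplasmin, went from 90.3 to 115 CPM to 130 to 217 CPM (0.79 ± 0.13, adjusted p 0.000914). Neither overlapped between the ages.

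Blood-forming lineages differed in how evenly they moved. Megakaryocyte and platelet genes summed to 356, 434 and 480 CPM as lowest, median and highest in young and 512, 715 and 1543 CPM in old spleens, without overlap. Of 16 such genes 7 were called higher, but 0 by edgeR with the look-alike pair as 1 library, where 15 had an unadjusted p under 0.05, and 14 by DESeq2 with all libraries. With 1 library left out the count was 0 (without old male 3 or young male 3) to 13 (without old male 2), and 0 to 4 without each of the other libraries. Tubb1, the platelet tubulin, was at 1.12 ± 0.31 (adjusted p 0.0214; 0.0596 with the look-alike pair as 1 library; not called without old male 3 or young male 3) and Pf4, platelet factor 4, at 1.32 ± 0.42 (0.0427 and 0.111). Of 22 erythroid genes 0 were called by edgeR, 0 by DESeq2 and 0 had an unadjusted p under 0.05, and the erythroid sum overlapped at 21760 to 146400 CPM in young and 13740 to 90770 CPM in old spleens. The erythroid median was 1.05 in females and -0.01 in males. Of 30 cell cycle genes 0 were called by edgeR and 1 by DESeq2, with 4 at an unadjusted p under 0.05. All 30 fitted changes were above 0, with a median of 0.58. Top2a, a topoisomerase of dividing cells, had 169 to 460 CPM in young and 255 to 745 CPM in old spleens (0.84 ± 0.37, adjusted p 0.141), and its ages were apart within each sex. In nmrHAS2 spleens the cell cycle median was -0.12.

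**Figure D3:**
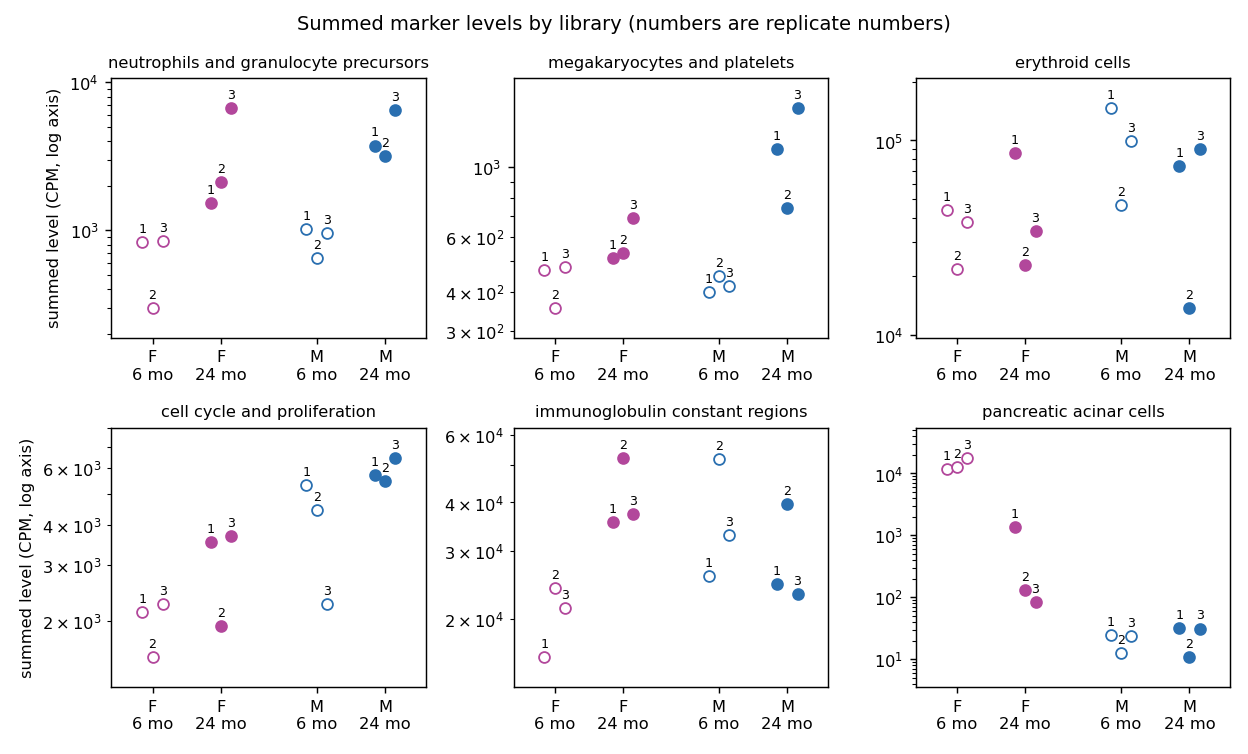
Summed level of 6 gene lists in each of the 12 CreER spleen libraries (CPM of the library total, log axis; numbers are replicate numbers; open, 6 months; filled, 24 months). The neutrophil and megakaryocyte sums are apart between the ages, the erythroid and cell cycle sums overlap, and the pancreatic sum is 12020 CPM or more in the 3 young females.

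Other lists had few called members. Of 15 immediate early genes 4 fell and 1 rose. With the look-alike pair as 1 library 2 fell and none rose, 2 fell without young male 3, and with 1 library left out the rise was called in 3 of 12 fits, those without old female 3, old male 2 or young female 2. Egr3, a factor induced by antigen receptor signals, had 6.35, 13.2 and 24.3 CPM in young and 1.75, 3.05 and 4.62 CPM in old spleens (-2.06 ± 0.33, adjusted p 0.000664), and Ier2 fell by 0.54 (± 0.13, adjusted p 0.0082), both without overlap. Of 26 cytosolic ribosomal protein genes (median -0.15) and of 12 heat shock genes 0 were called by edgeR or DESeq2, with 1 at an unadjusted p under 0.05 in each list. Mast cell and basophil genes had 1 called of 11, Hdc, histidine decarboxylase, from 6.22 to 10.4 CPM in young to 16.6 to 38.8 CPM in old spleens (1.69 ± 0.31, adjusted p 0.00191).

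Markers of the pancreas, which adjoins the spleen, differed by sex and age. Pancreatic acinar genes summed to 12020 to 17750 CPM in young females, 84.2 to 1371 CPM in old females, 12.6 to 24.5 CPM in young males and 10.7 to 32.3 CPM in old males. In old males 9 of 18 markers were at 0 in all libraries, among them Cpa1, Ctrb1 and Pnlip, and in young males 4 (Prss1, Clps, Try5 and Reg1), while 17 of 18 lay above 1 CPM in both female groups. Of the 17 tested 0 were called by edgeR over both sexes and 2 by DESeq2, with 2 at an unadjusted p under 0.05 and a median of -4.54 in females and 0 in males. Among the largest falls Klk1, a kallikrein of exocrine glands (-2.67 ± 0.68; adjusted p 0.0503 with the look-alike pair as 1 library), and Erp27, an endoplasmic reticulum protein abundant in pancreas (-2.65 ± 0.48), had their highest levels in the same 3 young females, and the part of pancreatic tissue in their calls was not tested. Klk1 had 4.64 to 6.34 CPM in young males and 0.815 to 4.5 CPM in old males.

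**Figure D4:**
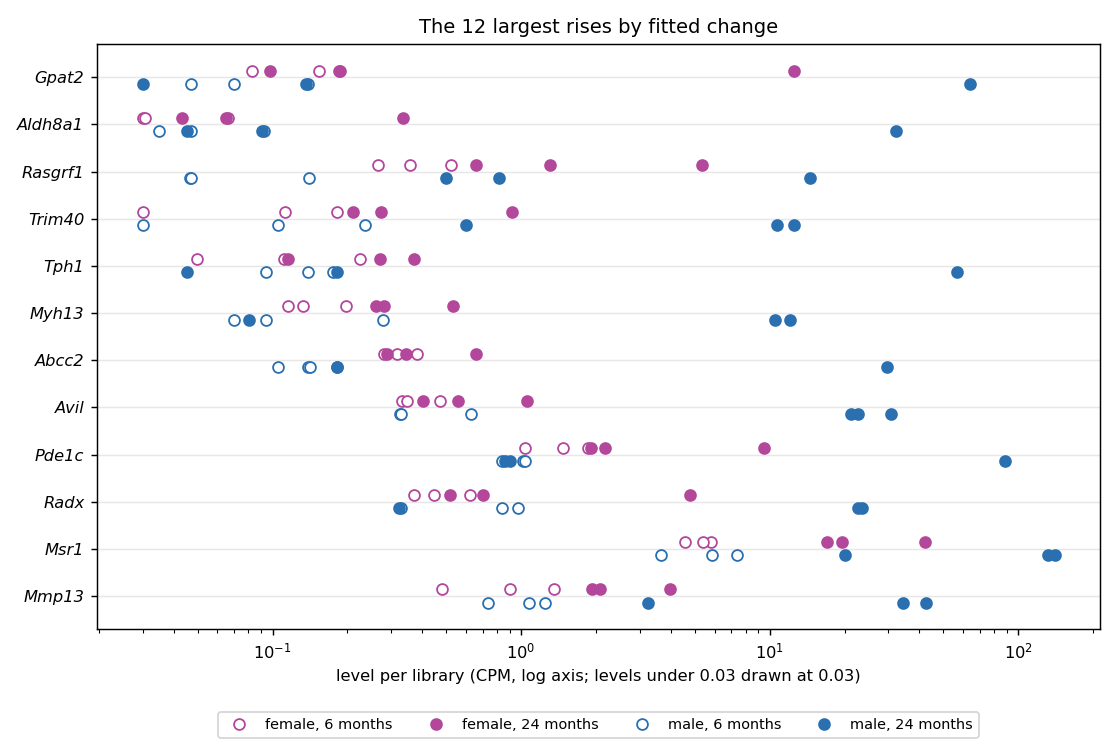
Level of the 12 named genes with the largest rises in each CreER spleen library (CPM, log axis; levels under 0.03 CPM drawn at 0.03; open, 6 months; filled, 24 months). For most of these genes 1 or 2 old libraries lie far to the right, while Msr1 and Mmp13 lie higher in all 6 old libraries than in any young one.

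Most of the 12 largest fitted rises rested on 1 or 2 old libraries. Gpat2, a glycerol phosphate acyltransferase known from testis, was at 63.9 CPM in old male 2 and 12.6 CPM in old female 3, and at 0 to 0.187 CPM in the other old libraries (fitted change 6.41 ± 1.4). Without old male 2 the change was 2.29, and without old female 3 it was 3.95, and the call was lost in both. Old male 2 alone also held 32.2 CPM of Aldh8a1 (4.79), 56.5 CPM of Tph1, the enzyme of serotonin synthesis (3.99), and 29.6 CPM of Abcc2, a bile transporter (3.33). Without that library their changes were 1.15, 0.31 and 0.45, and that of Pde1c, a calcium-dependent phosphodiesterase, was 0.76 instead of 3.31, none of them called. Aldh8a1 lost its call without old female 3 as well, and Abcc2 kept its call in 5 of 12 such fits. Rasgrf1, a Ras exchange factor, changed by 4.31 ± 0.79 and by 2.80 without old male 2, where it was still called. Other large rises were high in the look-alike libraries old male 1 and 3: Trim40 (12.6 and 10.7 CPM), Myh13 (12.1 and 10.5 CPM) and Radx (22.6 and 23.6 CPM), against 0.602, 0.0803 and 0.321 CPM in old male 2. Myh13 was not called with the look-alike pair as 1 library (adjusted p 0.0542) or without young male 2 or 3.

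Mmp13, the collagenase 3 gene, ranged from 0.48 to 1.35 CPM in young and from 1.93 to 42.7 CPM in old spleens (3.12 ± 0.61, adjusted p 0.00268), with the highest levels in old males 1 and 3. Avil, which encodes the actin regulator advillin, was at 21.2 to 30.7 CPM in all 3 old males and at 0.403 to 1.06 CPM in old females, against 0.325 to 0.629 CPM in young spleens (3.31 ± 0.70, adjusted p 0.00475). The large falls rested on more libraries. Slc28a2b, a nucleoside transporter gene with a near-identical neighbour, had 4.32, 16.5 and 26 CPM in young and 0.499, 1.31 and 1.73 CPM in old spleens (-3.70 ± 0.46, adjusted p 0.000101). Tmem108 (-2.41 ± 0.36), Erdr1 (-2.41 ± 0.42), Tdrp (-2.16 ± 0.23), Pxdc1 (-2.12 ± 0.25) and the myosin light chain gene Myl4 (-1.65 ± 0.18) were likewise lower in every old than in every young library. Reads of Erdr1 can come from several copies. Crisp3, a cysteine-rich secretory protein, fell by 2.81 (± 0.55), and by 4.53 without old male 2.

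Of the 160 named genes 130 were called, 100 of them with the look-alike pair as 1 library too, and 92 were called without each of the 12 libraries in turn. The ages were apart over all 12 libraries in 47 of these 130, and in 20.8% of all 2850 called genes. The rule took mostly called genes with large changes, so these counts describe the named genes only.

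The sexes were compared within the same fit. Females alone gave 25 genes called higher and 46 lower, and males alone 1208 and 1215. The male counts keep both libraries of the look-alike pair, so they may rest on 2 old animals. Male counts with the pair as 1 library are not given. The difference in ageing between the sexes was called for 0 genes by edgeR, with 2456 at an unadjusted p under 0.05 and 366 called by DESeq2, so no gene is given as changing in 1 sex only. Without old male 2 that count was 301 in edgeR, and without old female 3 it was 27. For the interferon list, whose median was 1.09 in males and 0.29 in females, no member's sex difference was called.

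The 12 nmrHAS2 spleens share no library with the CreER spleens. With age 1139 genes were higher there (5.46%) and 702 lower (3.37%). These and the other nmrHAS2 values keep young females 1 and 2, which looked alike, as separate libraries. Of the genes higher in CreER spleens, 771 were also called higher in nmrHAS2 spleens, 57.2% of the CreER list and 67.7% of the nmrHAS2 list. On the lower side 394 were called in both, 26.2% and 56.1%. The fitted change had the same sign in nmrHAS2 spleens for 1317 of the 1347 higher (97.8%) and 1452 of the 1503 lower genes (96.6%). That share was not counted over all genes tested. The difference in ageing between the genotypes was called for 0 genes by edgeR, with 845 at an unadjusted p under 0.05 and 34 called by DESeq2. It was called for 12 without old male 2.

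**Figure D5:**
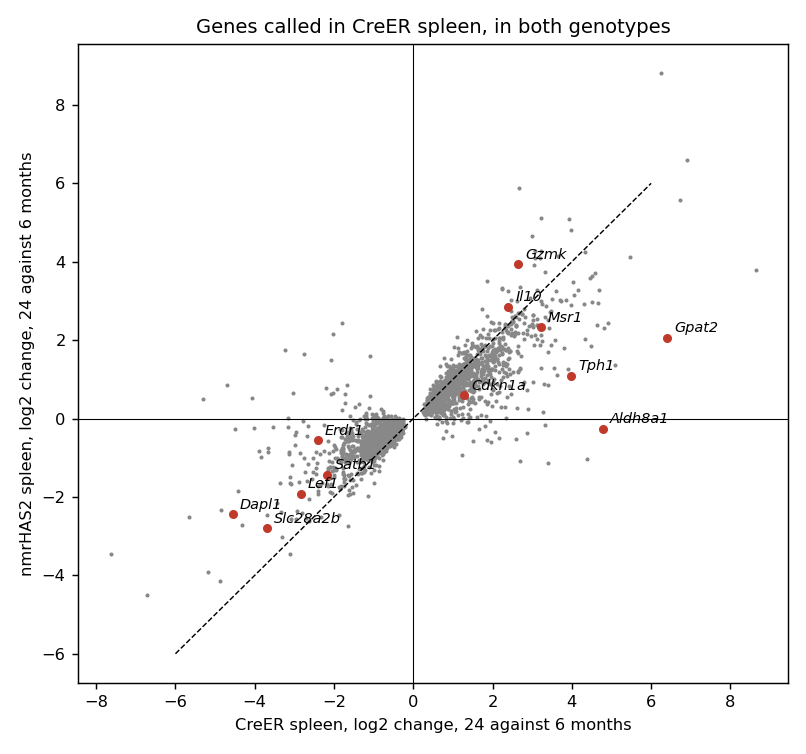
Log2 change at 24 against 6 months in nmrHAS2 spleens (vertical) against that in CreER spleens (horizontal) for each gene called in CreER spleens; named genes in red, dashed line at equal change. Of the 1347 higher genes 97.8% and of the 1503 lower genes 96.6% have the same sign in both, and Aldh8a1, Tph1 and Gpat2 lie far below the line.

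Neutrophil genes repeated in nmrHAS2 spleens with 15 of 18 higher, naive T cell genes with 7 of 12 lower and age-associated B cell genes with 6 of 10 higher. Of the naive genes Lef1 fell by 1.92 there (adjusted p 0.00114) and Satb1 by 1.44 (adjusted p 0.00199). Gzmk rose by 3.93 (adjusted p 0.000219), and Msr1 by 2.34 (adjusted p 0.00528). Of the 20 general T cell genes 0 were called by edgeR and 2 by DESeq2 in nmrHAS2 spleens, with 4 at an unadjusted p under 0.05 (1 higher, 3 lower). Ighd was at -0.82 there (adjusted p 0.071) and Marco at -0.70 (adjusted p 0.116), and for neither was the genotype difference called (adjusted p 0.63 for Ighd). Aldh8a1 was at -0.26 and Tph1 at 1.09 in nmrHAS2 spleens, neither called.

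Kidneys of CreER animals gave the contrast with an organ that is not lymphoid. The 24 CreER libraries of both organs were fitted together, and some may come from the same animals, which the labels do not tell. The change with age lay above that of kidney for 1150 of 20792 genes (5.53%) and below it for 1605 (7.72%). The signed change was lower in spleen than in kidney for 13 of 14 B cell genes and 18 of 20 T cell genes. The same held for 8 of 12 immunoglobulin constant genes and 8 of 11 class II genes. In none of these lists was a gene called the other way. B cell genes had a median log2 change of 1.81 in kidney against -0.78 in spleen, and immunoglobulin constant genes one of 2.70 in kidney. Lef1 was at 0.00 in kidney and -2.84 in spleen (difference -2.83, adjusted p 0.00032). For neutrophil genes the kidney median was 1.4, and the change in spleen was above that in kidney for 2 of 18 by the test. The gene with the smallest p for the difference, Adamts6, a matrix protease, fell in spleen from 13.2 to 21.3 CPM to 5.94 to 10.1 CPM (-1.17 ± 0.18) and was at 1.10 ± 0.14 in kidney.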

How the data were processed

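RNA of 12 CreER spleens was compared between 24 and 6 months. Per the labels' protocols, RNA was extracted from pulverised frozen tissue with Trizol, digested with DNase and purified with an RNeasy kit. Per the submitters' processing notes, reads were trimmed with Trim Galore 0.6.5 and quantified with Salmon 1.4.0. The authors deposited expected counts per gene (40946 genes, 0 columns without a sample, 40415 symbols matched to the annotation used here), which were rounded to whole numbers. No source used here states the build behind the counts. Only promoters carry positions, taken from the RefSeq table. Total counts of 20.8 to 98.6 M per library let a count of 0 allow 0.0304 to 0.144 CPM (3 counts), which covers counting error only.

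All 24 spleen libraries were fitted with edgeR 4.0.16 in R 4.3.3: 8 group means, TMM, filterByExpr, the quasi-likelihood F test, both sexes weighted equally, p 2-sided and adjusted by Benjamini and Hochberg over all genes tested, threshold 0.05. The standard error of a log2 change is its size over the square root of F. Differences between sexes and genotypes are contrasts of this fit, and the 24 CreER spleen and kidney libraries were fitted together for the tissue difference. The scripts were tested on simulated data. Labels name no animals, so the spread behind each p is that between samples, which may be technical.

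Members and the 46 gene lists were chosen with earlier results of these data known, and so was the rule for named genes. The rule took, among called genes whose sexes moved alike and whose mean reached 2 CPM, the 12 largest rises and falls and the 4 smallest p in each direction. It also took up to 4 called members per list (2 where none was called), the immunoglobulin constant genes, the 5 smallest p of each difference, and Has2 with the transgene. Pseudogenes, IDs lacking a symbol, symbols of the Gm-number or Rik kind, receptor segments, Y-linked genes, Xist and Tsix were not eligible. It named 160 genes, and other list members were named after their values were seen. Leaving out libraries was run for these genes, the counts and the lists. The alternatives were RLE size factors, no filter, DESeq2 1.42.0, only the 12 libraries, a replicate block, each sex alone, at least 2-fold, and each library left out. Added after seeing the data were the look-alike pair as 1 library and leaving out libraries with a transgene level against their label. With that pair as 1 library, the pair of young female nmrHAS2 libraries that looked alike was summed too. Some list members are counted in the lists but are not reported here by name.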

Additional observations from a re-analysis of the deposited data

Results flagged for a closer look

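In 6 of 58 groups of 6 libraries (29 named genes at 2 ages), 1 library stood far from the others, with a value over 0.625. Many of these genes were named for large changes in these same libraries, so the count cannot be set against a chance rate. The values below are the gap to the nearest library as a share of the group's range of log2(CPM + 0.1). Old male 2 was the highest old library for Aldh8a1 (0.795, 32.2 against 0.335 CPM in the next), Tph1 (0.802, 56.5 against 0.372 CPM), Abcc2 (0.787, 29.6 against 0.658 CPM) and Lef1 (0.718, 5.78 against 3.58 CPM). Young female 1 was the lowest young library for Slc28a2b (0.696, 4.32 against 15.1 CPM) and Tdrp (0.676, 5.27 against 8.52 CPM). For Lef1, Slc28a2b and Tdrp the ages stayed apart and the calls held without each library.

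For 5 genes the change with age differed between spleen and kidney with the smallest p (edgeR, adjusted p between 5.66e-06 and 5.86e-06). Ageing in spleen minus ageing in kidney was -2.26 for Adamts6, -3.00 for Pxdc1, -1.64 for Acot2, -1.27 for Foxp1 and 1.03 for Arhgap10 on the log2 scale. Pxdc1 fell by 2.12 in spleen and was at 0.89 in kidney, and Arhgap10 was at 0.28 in spleen (not called) and -0.73 in kidney.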

How the results depend on the processing

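The 1347 higher and 1503 lower genes became 870 and 784 with the look-alike pair as 1 library, 25 and 46 in females alone, and 660 and 444 at 2-fold or more. Without a filter the lower genes were 854. With 1 library left out, higher genes ranged from 870 (without old female 3) to 1866 (without old male 2) and lower genes from 833 (without old male 3) to 2825 (without old male 2). Under RLE size factors 1521 and 1245 were called, under DESeq2 1944 and 1632. The sex difference, 0 in edgeR, was 366 genes in DESeq2, 1 with only the 12 libraries, 1 without libraries whose transgene level goes against their label, and 0 to 301 with 1 library left out. The genotype difference, also 0, was 34 in DESeq2 and 0 to 12 with 1 library left out. The tissue difference of 2755 genes ranged from 2177 to 4606 with 1 library left out. A replicate block left the calls near their main counts (1405 higher, 1712 lower). The main fit leaves the replicate numbers out, and the labels do not tell whether libraries of the same number were handled together, which was not tested. Of same-numbered pairs from different groups, 9 of 18 had a correlation over 0.1 (median 0.106). Of pairs with other numbers 5 of 36 did (median -0.0553), and 10 of 12 libraries correlated best with their own number.

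Over the 160 named genes, direction turned in the following fits, in none of which the gene was called. In females alone Jchain was 0.47, Cxcl12 0.0366, Lpl -0.10, Krt18 -0.19, Alb -0.10, Ighg2c 0.42, Ighg3 0.65, Iglc2 0.66, Acot2 0.19 and Has2 -0.20. In males alone Cela1 was 0.30, Ctrl 0.25, Ighm -0.11, Ighg1 -1.17, Ighe -0.85 and Igkc -0.40. With 1 library left out the ranges were -0.61 (old male 1) to 1.53 for Alb, -0.52 (old female 1) to 0.84 for Ighg1, -0.14 (old male 2) to 1.74 for Ighg2b, -0.74 to 0.0118 (young male 2) for Hspb1 and -0.0708 (old male 2) to 1.44 for Ighe, which was also below 0 without young male 1 or 3. In females alone 118 of the 160 moved to the weaker side of the threshold and 0 to the stronger side. With the look-alike pair as 1 library these counts were 30 and 0. The causes were not tested. The depth of males, 20.8 to 26.5 M counts, limits what low genes can show there.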

Other observations

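Receptor variable segments name antigen receptor clones only in part. Their use was looked at after the data were seen, so the shares are given with no test. The most used heavy chain segment took 25.7 ± 7.67% (SD, n = 6) of heavy variable counts in old and 10.4 ± 4.2% (n = 6) in young CreER spleens. In nmrHAS2 spleens that share did not part the ages, with 10.0 to 37.6% in old and 7.17 to 32.2% in young ones. For kappa chains the share was 33.9 ± 6.5% in old and 14.2 ± 9.67% in young CreER spleens (n = 6 each), and 12.8 to 43.1% in old and 7.13 to 34.8% in young nmrHAS2 spleens. For T cell receptor alpha and beta chains it was 12.5 ± 4.66% against 7.6 ± 0.997% in CreER spleens (n = 6 each), and 8.29 to 18.9% against 5.88 to 8.45% in nmrHAS2 spleens. Old and young overlapped in each of these 3 kinds of chain in both genotypes. The kappa segment Igkv5-39 took 29.4 to 46.7% in 4 of 6 old spleens, 2 of which are the look-alike pair, 2.61 and 6.44% in the other old spleens, and 1.44 to 10.7% in young ones. Shares of the T cell receptor segments in old males 1 and 3 rest on 780 and 800 counts. Many segments have near-identical copies, so the split of their reads is uncertain.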
